A study of Mus musculus with 6 samples.

Results

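The 6 genes Csnk2a1, AI506816, Celsr2, Clk4, Arih1 and Cd47 are each read, in RNA of the mouse adrenal gland, by 2 or more probe sets of the MG_U74Av2 array whose differences between the hypertensive strain BPH and the hypotensive strain BPL are unequal in size or, for AI506816, opposite in direction. A probe set is a group of short oligonucleotides designed against 1 transcript record. Every probe set whose annotation names exactly 1 gene, that gene being among the 6, was taken, which gave 14 of the 12488 probe sets on the array. Csnk2a1 has 4 of them and the other 5 genes have 2 each. The genes were chosen by their measured BPH against BPL difference, 1 strongly differing probe set beside 1 or more that follow weakly or not at all. Every strain difference of these 14 probe sets is therefore a description and carries no test.

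The RNA came from adrenal glands of both strains, which are mouse lines with high and with low blood pressure ("Blood Pressure High" and "Blood Pressure Low"), with 3 arrays per strain. The labels give no treatment, age, sex or number of animals behind an array, nor whether the arrays of a strain are separate animals, so that p-values measure the spread between these arrays only. In RNA of a whole tissue, fewer cells of a type and less RNA per cell cannot be told apart.

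The proteins of the 5 coding genes act at different levels of the cell. Csnk2a1 encodes the catalytic alpha subunit of CK2, a serine/threonine kinase with a very wide range of substrates. Clk4 is a CDC-like kinase, a family that phosphorylates the serine/arginine-rich splicing factors and so acts on exon choice. Arih1 is a ubiquitin ligase of the ariadne family that works together with cullin-RING ligases carrying the ubiquitin-like modifier NEDD8. Celsr2 is a flamingo cadherin, a large cell surface receptor related to the planar cell polarity protein of the fly. Cd47 is a membrane protein whose binding to SIRPA on macrophages restrains phagocytosis, and it also binds thrombospondin. AI506816 is listed as a long noncoding RNA in RefSeq, and no function is given here.

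Because a probe set reads only a short stretch of a transcript, probe sets of 1 gene can report different transcript forms, and sequence differences between strains can alter binding. The RefSeq table of the GRCm38.p6 assembly lists 8 curated transcripts for Clk4, 5 for Cd47, 2 each for Celsr2 and AI506816, and 1 each for Csnk2a1 and Arih1. It also lists predicted transcripts, 8 each for Clk4 and Cd47, 5 for Csnk2a1, 3 each for Celsr2 and Arih1, and 0 for AI506816. Which of these transcripts each probe set reads was not tested. No probe sequences were used here, so none is printed.

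The adrenal origin of the RNA was plain on every array. The mean log2 intensity of 4 steroid synthesis genes of the cortex lay between 16.6 and 16.8 in both strains, and that of 5 chromaffin genes of the medulla between 14.6 and 14.9 in BPH and between 13.6 and 14.9 in BPL. All 5 medulla markers were higher in BPH, and limma called none of them. All 6 brown fat markers were lower in BPH, with list means from 11.1 to 11.7 in BPH and from 12.4 to 13.8 in BPL. Ppargc1a and Elovl3 were too dim to test. Of the brown fat markers tested, limma called 1, Ucp1, with a log2 difference of -2.68 (adjusted p = 0.0137). Of these markers 2 lay below the intensity floor of 201.3 on some arrays and none on all of them. The 8 skeletal muscle markers averaged 13.5 on BPH 1 and on BPL 2, and from 9.25 to 10.7 on the other 4 arrays, with 4 markers below the floor on some arrays. The part of medulla, brown fat and muscle in the differences that follow was not tested. BPH 1 and BPH 2 were processed on fluidics station 2, and BPH 3 and all BPL arrays on station 1.

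All 14 probe sets were bright enough to be tested, in a table of 7293 tested probe sets. Brightness was judged on the mean over the arrays of both strains, which had to reach 668.1. In BPL alone, AI506816 93180_at (mean intensity 403) and Clk4 101937_s_at (628) lay below that value. Both were tested only because of their higher BPH values. In limma, 184 of the 7293 (2.52%) passed an adjusted p under 0.05, 114 (1.56%) higher and 70 (0.96%) lower in BPH. Of the 14 probe sets 8 passed, 4 higher and 4 lower. The arrays of the 2 strains did not overlap for 9 of the 14, against 1933 of 7293 (26.5%) over the table. Since the genes were selected on this contrast, nothing is read from either count.

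**Figure D1:**
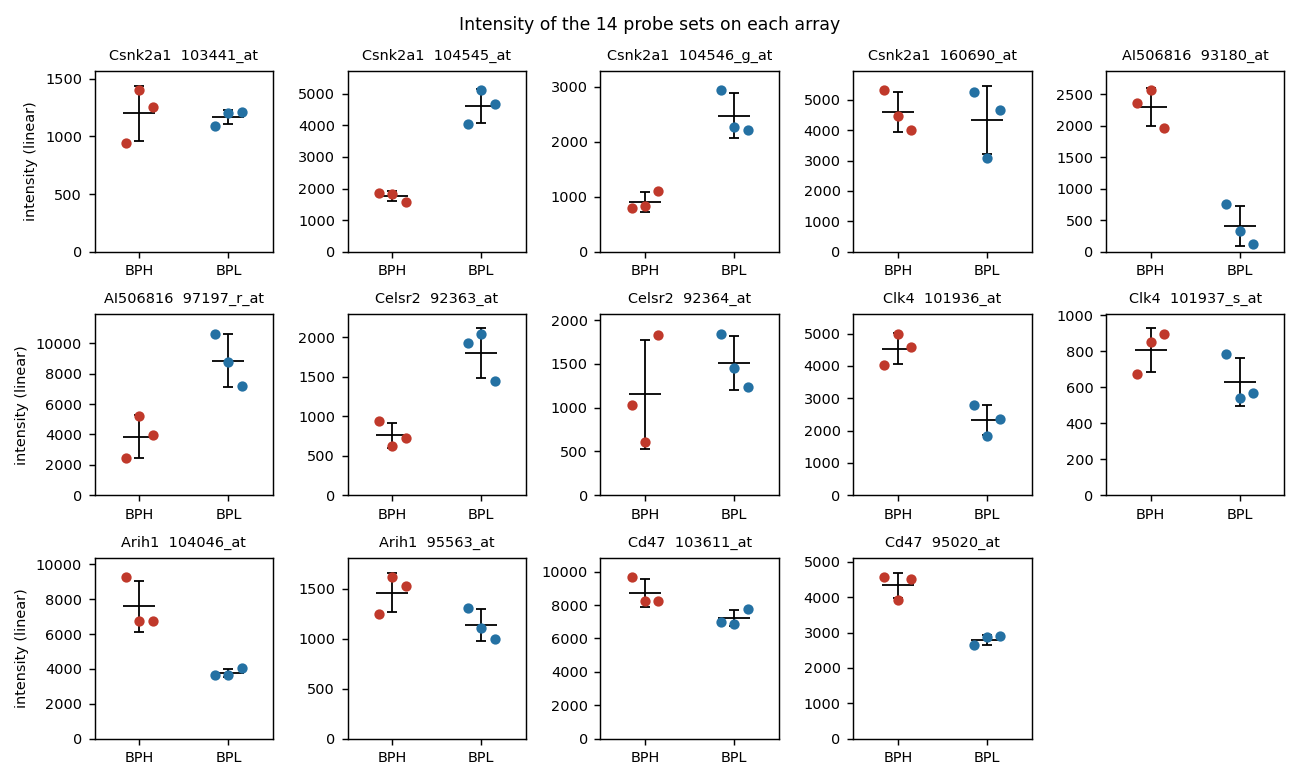
Each panel shows 1 probe set, with intensity on a linear axis from 0 and a point for each of the 3 BPH (red) and 3 BPL (blue) arrays, numbered 1 to 3 from left to right; the bar and whiskers are the mean and SD. The strains are wholly separate in 9 panels, among them both panels of AI506816, which run opposite ways.

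Csnk2a1 was lower in BPH at 2 of its 4 probe sets and overlapped between the strains at the other 2. Probe set 104545_at had intensities of 1871, 1820 and 1567 on BPH 1, 2 and 3, and of 4049, 5117 and 4682 on BPL 1, 2 and 3. All 3 BPH arrays lay below the lowest BPL array. The mean was 1753 ± 163 in BPH and 4616 ± 537 in BPL (SD, n = 3), which gave a difference of -1.39 in log2 (SE 0.15), 2.63-fold higher in BPL.

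The companion probe set 104546_g_at was built from the same transcript record, its suffix marking a set of a shared sequence group. It read 786, 825 and 1109 on the BPH arrays and 2941, 2261 and 2208 on the BPL arrays. The strains were again fully apart, and the log2 difference was -1.45 (SE 0.21). These 2 probe sets therefore differed from each other by far less than from the other 2.

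Probe set 103441_at of the same gene read 940, 1401 and 1257 in BPH and 1093, 1198 and 1207 in BPL. The BPL arrays lay within the range of the BPH arrays, and the log2 difference was 0.02 (SE 0.22). Probe set 160690_at read 5320, 4458 and 4003 in BPH and 5260, 3095 and 4657 in BPL, with a log2 difference of 0.11 (SE 0.21). Its values overlapped throughout, and its difference was -0.08 within station 1 and -0.23 without BPH 1 and BPL 2. That of 103441_at ran from -0.10 without BPH 2 to 0.21 without BPH 1 and BPL 2, so neither probe set had a settled direction. RefSeq lists 2 pseudogenes named after Csnk2a1, and whether a probe set also detects them was not tested.

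CK2 has a second catalytic subunit, Csnk2a2, closely related to Csnk2a1 and read by 3 tested probe sets. Its log2 differences were 0.19 (SE 0.18) at 94482_at, -0.36 (SE 0.19) at 94483_at and 0.00 (SE 0.18) at 98245_at. None of the 3 passed in limma, with the lowest adjusted p at 0.349.

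AI506816 stood apart because both of its probe sets separated the strains, in opposite directions. Probe set 93180_at read 2353, 2566 and 1963 on the BPH arrays and 750, 330 and 128 on the BPL arrays. Every BPH array was above every BPL array, and BPL 3 lay below the floor. With BPL 3 set to the floor the log2 difference was 2.63 (SE 0.44), and it was 2.20 without BPL 3.

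Probe set 97197_r_at of AI506816 read 2418, 5200 and 3970 in BPH and 10639, 8736 and 7159 in BPL. Here every BPH array was below every BPL array, with a log2 difference of -1.25 (SE 0.27). The suffix _r_at marks a set for which some probe selection rules were dropped by the manufacturer. Over the table, 4 of 353 tested probe sets of that kind passed (1.13%), against 151 of 5872 with the plain suffix _at (2.57%). The difference was -0.94 without BPH 1 and BPL 2 and -1.50 without BPH 2.

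Celsr2 was lower in BPH at 1 probe set and unsettled at the other. Probe set 92363_at read 934, 621 and 724 in BPH and 1924, 2047 and 1447 in BPL. The strains did not overlap, and the log2 difference was -1.25 (SE 0.24), or 2.39-fold higher in BPL. At 92364_at the values were 1029, 603 and 1831 in BPH and 1846, 1456 and 1230 in BPL. BPH 3 lay beside the highest BPL array while BPH 1 and BPH 2 lay below all BPL arrays. The log2 difference of -0.51 (SE 0.38) became -0.92 without BPH 3, -0.12 without BPH 2, and turned to 0.30 within station 1, where BPH 3 is the only BPH array. Another flamingo cadherin, Celsr1, was too dim to test, with a mean intensity of 156, below the floor.

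Clk4 was higher in BPH at 1 probe set, with the same direction and an overlap at the other. Probe set 101936_at read 4023, 4998 and 4570 in BPH and 2779, 1839 and 2365 in BPL. The strains were fully apart, with means of 4530 ± 489 and 2328 ± 471 (SD, n = 3) and a log2 difference of 0.98 (SE 0.18). Probe set 101937_s_at read 671, 851 and 898 in BPH and 782, 537 and 566 in BPL. BPL 1 exceeded BPH 1, so the strains overlapped, and the log2 difference was 0.37 (SE 0.31). Its suffix _s_at marks probes that can match more than 1 transcript, and its mean intensity was near the 668.1 needed for testing.

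Arih1 showed the same layout as Clk4. Probe set 104046_at read 9264, 6727 and 6772 in BPH and 3633, 3651 and 4044 in BPL, all BPH arrays above all BPL arrays. The log2 difference was 0.99 (SE 0.15), and BPH 1 was well above the other BPH arrays. Probe set 95563_at read 1243, 1615 and 1523 in BPH and 1309, 1106 and 996 in BPL. Only BPH 1 fell inside the BPL range there, and the log2 difference was 0.36 (SE 0.21). Both values changed little within station 1, to 0.84 and 0.43.

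Cd47 was higher in BPH at both probe sets. Probe set 95020_at read 4567, 3921 and 4508 in BPH and 2642, 2865 and 2890 in BPL, a log2 difference of 0.63 (SE 0.13). Probe set 103611_at read 9673, 8223 and 8254 in BPH and 6966, 6887 and 7754 in BPL, a log2 difference of 0.27 (SE 0.12). Neither probe set overlapped between the strains, so that for Cd47 the 2 probe sets differ in size and not in direction. The difference at 103611_at was 0.16 without BPH 1 and BPL 2.

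**Figure D2:**
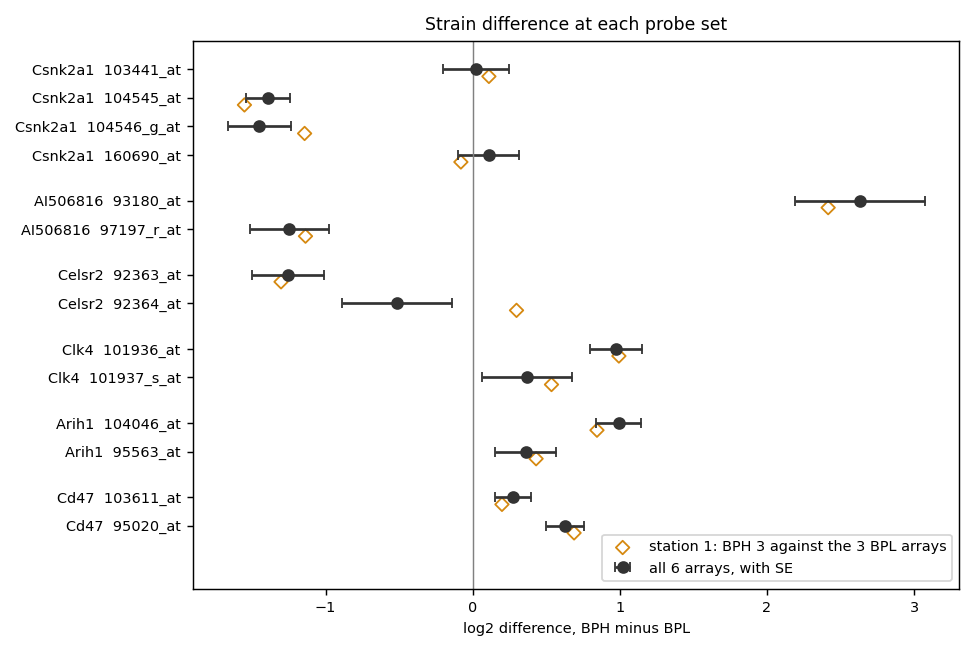
The log2 difference BPH minus BPL is on the horizontal axis for each of the 14 probe sets, as a filled point with its SE from all 6 arrays and as an open diamond for BPH 3 against the 3 BPL arrays, all run on station 1. The diamonds keep the side of 0 for 12 of the 14 probe sets, which had to be so for the 9 without overlap. The exceptions are Csnk2a1 160690_at and Celsr2 92364_at (-0.51 against 0.30).

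To set the 2 readings of a gene side by side on each array, the log2 ratio of its probe sets with the highest and the lowest strain difference was taken and the BPL mean subtracted. Array-wide brightness cancels in this ratio, which shows unequal change and not which probe set is right. For AI506816 the ratio was 4.53, 3.55 and 3.55 on BPH 1, 2 and 3 and 0.74, -0.16 and -0.58 on the BPL arrays. For Csnk2a1, with 160690_at over 104546_g_at, it was 1.97, 1.65 and 1.06 on the BPH arrays and between -0.34 and 0.29 on the BPL arrays. Both genes had a wide space between the strains.

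The ratio lay closer together in the other 4 genes. Clk4 had 0.69, 0.67 and 0.46 on the BPH arrays against -0.11 to 0.17 on the BPL arrays. Cd47 had 0.28, 0.29 and 0.49 against -0.06 to 0.10. In Arih1 the BPH values were 1.16, 0.32 and 0.41 and the highest BPL value was 0.28, and in Celsr2 they were 0.40, 0.22 and 1.60 with the highest BPL value at 0.20. In these 2 genes the lowest BPH and the highest BPL array nearly met, and a single array, BPH 1 for Arih1 and BPH 3 for Celsr2, held most of the distance. The ratio did not overlap between strains in all 6 genes, against 182 of 883 genes (20.6%) over the table. The genes were selected on this contrast, so nothing is read from that count.

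**Figure D3:**
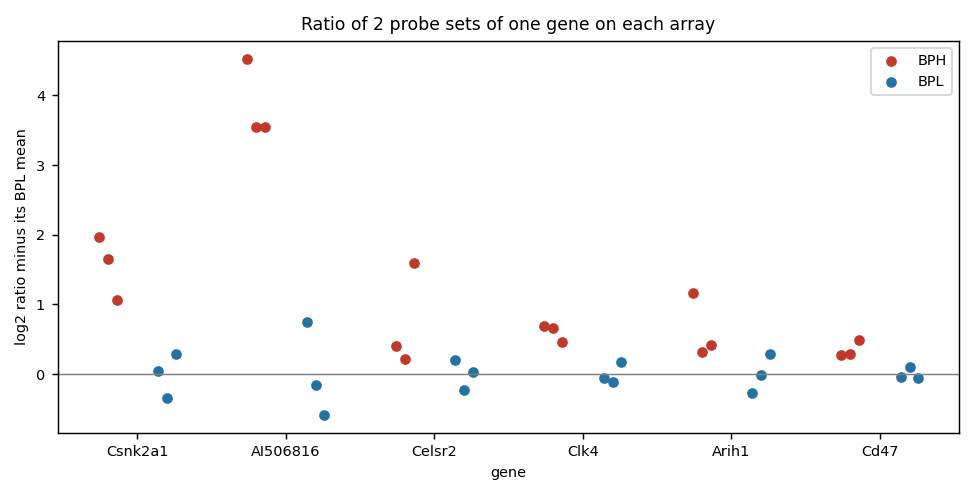
For each gene the points give the log2 ratio of 2 of its probe sets on each array, minus the mean of the BPL arrays, with BPH in red and BPL in blue. AI506816 and Csnk2a1 have the widest space between strains, while in Arih1 and Celsr2 the nearest BPH and BPL arrays almost meet.

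Over the whole array, a gene called at 1 probe set was usually not called at its others. Of 883 genes with 2 or more tested probe sets, 40 had at least 1 called in limma. In 32 of them (3.62% of the 883) the tested probe sets split between called and not called, and in 8 all were called. Csnk2a1, Celsr2, Clk4, Arih1 and Cd47 are among the 32. AI506816 was called at both of its probe sets, in opposite directions. Its calls held in 10 of the 17 alternatives in which 93180_at was tested and in 7 of 18 for 97197_r_at. AI506816 and the genes named before it were selected on their BPH against BPL difference, so nothing is read from these calls and counts. Of the 32 split genes, 25 had their extreme probe sets on the same side of 0, as had Celsr2, Clk4, Arih1 and Cd47. The extremes had opposite signs in the other 7, and in 40.7% of all 883 genes.

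The gap between the highest and the lowest strain difference of a gene had a median of 0.27 in log2 over the 883 genes and a 90th percentile of 0.73. The gap was 3.88 for AI506816, exceeded by 1 gene, 1.56 for Csnk2a1, the 12th largest, and 0.74 for Celsr2. Csnk2a1 has 4 tested probe sets, whereas 770 of the 883 genes have 2, and such a gap can only widen with more probe sets. The genes were chosen on these differences, so their large gaps are a description only. Arih1 with 0.63 and Clk4 with 0.61 lay below the 90th percentile. Cd47, with a gap of 0.35, ranked 339th of the 883, so by this measure its probe sets did not stand apart from those of other genes.

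Pairs of tested probe sets of 1 gene were also sorted by whether both were built from the same transcript record. The median gap was 0.21 over 138 pairs with the same record and 0.25 over 749 pairs with different records. A gap of more than 1 was found in 4.35% of the former and 4.01% of the latter. For 280 further pairs, the AI506816 pair among them, a record was not listed for both, and their median gap was 0.24, with 5% over 1. The Csnk2a1 pair 104545_at and 104546_g_at, with differences of -1.39 and -1.45, is of the first kind. Clk4, Arih1, Celsr2 and Cd47 each have 2 probe sets from different records.

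**Figure D4:**
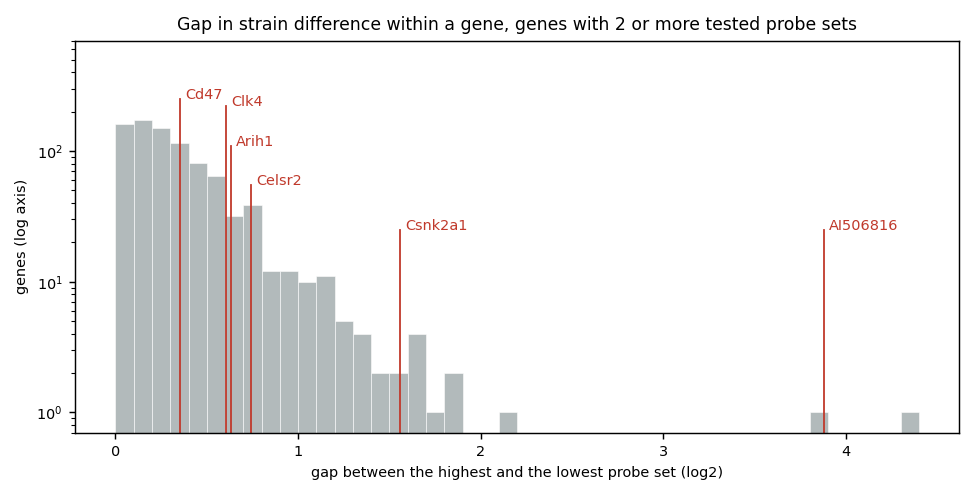
The histogram counts, on a log axis, the 883 genes by the gap in log2 strain difference between their highest and lowest tested probe set, with the 6 genes marked by red lines. AI506816 (3.88) and Csnk2a1 (1.56) lie far out, while Cd47 (0.35) lies in the body of the distribution.

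Genes that work with the 5 coding members were looked at by their brightest tested probe set, from 5 lists of partners and family members. Of 51 tested genes 3 passed in limma, all higher in BPH: Clk1, Npm1 and Ubqln1. Over all 5555 named genes 85 were higher and 50 lower, 19.3% had an unadjusted p under 0.05, and 54.8% had a positive difference. The counts of unadjusted p in the lists that follow are to be read against that 19.3%. No other tested gene of the 5 lists passed in either direction.

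In the list around Clk4, 1 of 17 tested genes was called higher and none lower, with 4 at an unadjusted p under 0.05 and a list median of 0.09 against 0.04 over all named genes. Clk1, the closest relative of Clk4 on the array and a kinase of the same splicing factors, read 15043, 16311 and 15516 in BPH and 9672, 9105 and 8876 in BPL. The strains were far apart relative to their spread, with a log2 difference of 0.76 (SE 0.11, limma adjusted p = 0.00942). The Clk4 probe sets had 0.98 and 0.37. Clk4 was chosen on this contrast, so no likeness is read from these values. Clk2 (0.04) and Clk3 (-0.02) gave differences near 0. The splicing factor genes Srsf3 (0.79, adjusted p = 0.0863), Srsf11 (0.46, adjusted p = 0.0776) and Tra2b (0.52, adjusted p = 0.138) were not called in limma. Srsf3 has 2 tested probe sets, both on the same side of 0. The gap of 0.58 between them is large beside the 0.79 of the brightest. The other Srsf3 probe set therefore does not repeat that difference. The call of Clk1 ended without BPH 2 (adjusted p = 0.0649) or BPH 3 (0.0597) and in both station settings, as a block (0.213) and for station 1 only (0.407), at differences of 0.73, 0.77, 0.75 and 0.75, in a range over all alternatives from 0.00705 to 0.407.

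In the CK2 list, 1 of 4 tested genes was called higher and none lower, with 2 at an unadjusted p under 0.05 and a median of 0.30. Npm1, the nucleolar protein nucleophosmin and a CK2 substrate, read 15661, 14637 and 14470 in BPH and 8253, 8139 and 11452 in BPL. Its log2 difference was 0.70 (SE 0.15, limma adjusted p = 0.0477). That call was lost in 12 of the 18 alternatives. Leaving out BPH 1, 2 or 3 or BPL 1 or 2 ended it (limma adjusted p from 0.087 to 0.165, differences from 0.62 to 0.72). So did the station block (0.459), leaving out BPH 1 and BPL 2 (0.176), no filter (0.192), no intensity trend (0.107), the replicate block (0.0853) and scaling to 1 median (0.0601). Within station 1 the difference was 0.66. The lowest adjusted p over the alternatives was 0.0103. The chaperone gene Hsp90aa1 (0.41, adjusted p = 0.113), Csnk2a2 (0.19) and the kinase co-chaperone gene Cdc37 (0.01) were not called in limma.

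In the list around Cd47, 1 of 8 tested genes was called higher and none lower, with 2 at an unadjusted p under 0.05 and a median of 0.15. Ubqln1, a ubiquilin that binds the cytoplasmic tail of CD47 and links proteins to the proteasome, had a log2 difference of 0.62 (SE 0.13, limma adjusted p = 0.0426). This call was lost in 11 of the 18 alternatives. Leaving out BPH 1, 2 or 3 or BPL 1 or 2 ended it too (limma adjusted p from 0.0615 to 0.17, differences from 0.52 to 0.69). So did the station block (0.402), leaving out BPH 1 and BPL 2 (0.119), no filter (0.112), no intensity trend (0.0985) and the replicate block (0.0977). Within station 1 the difference was 0.62. The lowest adjusted p over the alternatives was 0.032. The other Ubqln1 probe set had a difference of -0.03 (SE 0.17) and was not called in limma. Sirpa, the macrophage receptor for CD47, had the widest error of the list, with a difference of 1.20 (SE 0.52, adjusted p = 0.255) that became 0.58 without BPL 2, 1.78 without BPL 3 and 0.60 without BPH 1 and BPL 2. The scavenger receptor gene Lrp1 (0.22) and the mitochondrial protein gene Bnip3 (-0.29) were not called in limma.

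In the list around Arih1, limma called no gene of 19 tested, while 4 had an unadjusted p under 0.05, and 15 lay above 0 around a median of 0.17. The NEDD8-activating subunit gene Nae1 (0.53, adjusted p = 0.103), the cullin gene Cul4a (0.52, adjusted p = 0.111), the signalosome subunit gene Cops2 (0.94, adjusted p = 0.145) and Nedd8 itself (0.33, adjusted p = 0.191) had the smallest p-values. For Cops2 the difference was 0.60 without BPH 1 and BPL 2, and 1.24 without BPL 3, where limma called it (adjusted p = 0.0437). These values are of its brightest probe set. Cops2 has 2 tested probe sets, both on the same side of 0. The gap of 0.91 between them is almost as large as the 0.94 of the brightest. The other Cops2 probe set therefore does not repeat that difference. Arih2, the other ariadne ligase, had differences of -0.10 and -0.03 at its 2 probe sets.

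In the list around Celsr2, 9 of 18 listed genes were found on the array and 3 were bright enough to test, no gene was called in limma, and 1 had an unadjusted p under 0.05. The receptor gene Fzd3 (-0.81, SE 0.26, adjusted p = 0.145) and the dishevelled genes Dvl2 (-0.45) and Dvl1 (-0.08) all had negative differences, with a median of -0.45. For Fzd3 the value was -0.30 within station 1, and Dvl1 turned to 0.03 there.

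**Figure D5:**
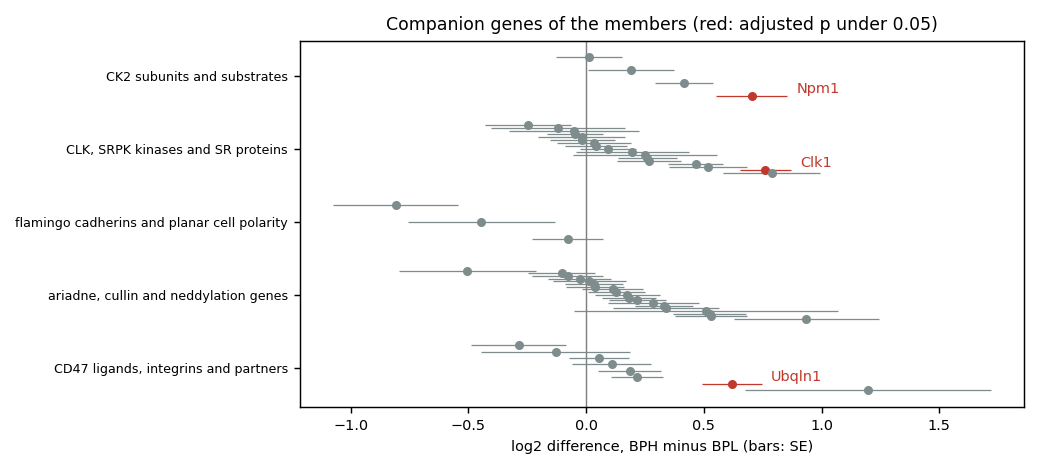
Each point is the log2 difference BPH minus BPL of 1 tested companion gene, with its SE, grouped by list; red points passed an adjusted p under 0.05 in limma. The 3 red points, Npm1, Clk1 and Ubqln1, lie between 0.62 and 0.76, and the 3 planar cell polarity genes all lie below 0.

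Position on the chromosome was not used to choose the genes, so the nearest tested genes on either side, 2 each, were read from the RefSeq order. Of these 24 neighbours 1 was called in limma and 6 had an unadjusted p under 0.05, and their median difference was 0.12, against 2.52% of probe sets called and 19.3% of named genes at that unadjusted p. The called one was Srxn1, the gene of sulfiredoxin, which restores oxidised peroxiredoxins and which 3 RefSeq genes separate from Csnk2a1. It read 3334, 6696 and 7804 in BPH and 2245, 1622 and 2466 in BPL at 102780_at, a log2 difference of 1.43 (SE 0.30, limma adjusted p = 0.0477), opposite in sign to the 2 low Csnk2a1 probe sets. Its second probe set gave -0.18 (SE 0.18), so Srxn1 is itself a gene whose probe sets split. The call ended without BPH 2, BPH 3, BPL 1 or BPL 2 (adjusted p from 0.104 to 0.179), with the station block (0.161), within station 1 (0.103), with no filter (0.245) and with no intensity trend (0.0997), and lay between 0.00549 and 0.245 across the alternatives.

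Tcf15, on the same side of Csnk2a1 as Srxn1 but nearer, had a difference of -0.57 (SE 0.43) and was not called in limma. On the other side of Csnk2a1, Tbc1d20 had 0.13 (SE 0.13) and Rbck1 -0.05 (SE 0.14). Srpk2, a kinase of the same splicing factors as Clk4, is the direct neighbour of AI506816 and had a difference of 0.25 (SE 0.30). Around Clk4, Hnrnph1 had 0.56, Rufy1 0.33, Hnrnpab 0.10 and Nhp2 -0.13. RefSeq places 30, 29, 2 and 3 genes between Clk4 and these 4. Of the other neighbours with an unadjusted p under 0.05, Klhl7 after AI506816 had -0.78, Stxbp3 after Celsr2 0.56 and Phldb2 before Cd47 0.51. Limma called none of these 3, and 14, 14 and 47 RefSeq genes separate them from those members. Near Arih1, Adpgk had 0.21, Hexa 0.20, Neo1 -0.19 and Parp6 -0.04. Sars, with 1 RefSeq gene between it and Celsr2, had -0.05. Alcam, the nearest tested gene after Cd47 but with 24 RefSeq genes between, had 0.74 (SE 0.18, limma adjusted p = 0.0685). Of the neighbours named here, Alcam alone had a larger absolute difference than the strongest probe set of its member gene (0.63 for Cd47).

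Likeness of pattern was measured by Pearson's r of log2 intensity over the 6 arrays, between the strongest probe set of each gene and all tested probe sets of other single genes. With 6 arrays and 7293 probe sets very high values are common, and r mostly follows the strain step. For 104546_g_at of Csnk2a1, the most alike were Ctse (0.988) and Abhd14a (0.984). For 93180_at of AI506816 they were Zfp1 (0.993) and Rpp21 (0.991), whose own log2 differences were 0.43 and 0.44. Pdcl3 and Fkbpl (both 0.989) were closest to 92363_at of Celsr2. Rad23b (0.998) and Hao2 (0.995) matched 101936_at of Clk4, where 120 probe sets had r above 0.95. For 104046_at of Arih1 they were Gnb1 (0.995) and Lyz2 (0.991), and for 95020_at of Cd47 Pigf (0.996) and Mgst3 (0.991).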

How the data were processed

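Total RNA of mouse adrenal glands was hybridised to Affymetrix MG_U74Av2 arrays, 3 per strain. The authors deposited 1 linear intensity for each probe set on each array; the sources used here do not name the software. The mean after trimming 2% at each end was 2501 on all 6 arrays, so no further scaling was applied. Array medians ran from 1003 to 1115. Values below the 20th percentile (201.3) were set to it before log2. Of 12488 probe sets, 66 controls and those with a mean log2 intensity under that of the 40th percentile (668.1) were left out. Differences are BPH minus BPL from lmFit and eBayes with an intensity trend (limma 3.58.1, R 4.3.3), two-sided, with Benjamini-Hochberg adjustment over 7293 probe sets. The fit was tried on simulated arrays with independent noise. These held no station or tissue effects, so the trial does not bear on them. SEs are limma's; means and SDs are of intensities without the floor. Precision is limited by the number of arrays.

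In the platform annotation 10855 probe sets carry 1 gene, 396 carry several and 1237 carry none; RefSeq holds the gene of 10839 of the first (GRCm38.p6) and was used for names and gene order only. The 6 genes, the lists and the tests were chosen with earlier results of these data known. Named genes are all 14 probe sets, up to 4 genes with the smallest p of each partner list, 2 genes most like each strongest probe set, and marker genes. The neighbours, the other probe sets of relatives, and the second probe sets of Ubqln1 and Srxn1 were added after the data were seen. Same-numbered replicates of the strains had correlations of -0.22, -0.08 and 0.01 between their deviations from the strain means. Deviations from a mean of so few arrays depend on each other. These values therefore cannot decide whether same-numbered arrays were paired. Alternatives covered normalization, floor, filter, variance model, replicate block, station and each array left out.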

Additional observations from a re-analysis of the deposited data

How the results depend on the processing

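The direction at the 8 probe sets of the 6 genes that passed was kept under every one of the 18 alternatives run. This was largely fixed in advance, because the strains did not overlap at these probe sets and the genes were chosen on this contrast. Leaving out arrays could not turn a sign. Changes of filter, variance model or replicate block left each difference as it was. Of the 8, 1 stayed called with no filter, 5 with no intensity trend, 4 with the replicate block, 1 with the station block, 0 within station 1, and 3, 1, 2, 4, 5 and 8 without BPH 1, 2, 3 and BPL 1, 2, 3. The 184 called probe sets became 52 with no filter, 83 without the trend, 18 with the station block, 7 within station 1, and 42 to 361 when 1 array was left out. The 32 split genes became 17, 18, 6 and 2 under those 4 settings, 19 without the 2 muscle-rich arrays (an alternative added after the data were seen) and 7 to 69 with 1 array left out. The 3 called partner genes became 1, 1, 0 and 0, and 1 without the muscle-rich arrays, 1 with the replicate block, and 0 to 5 with 1 array left out. With the replicate block 124 probe sets were called. Csnk2a1 103441_at, 160690_at and Celsr2 92364_at, which were not called, kept their sign in 15, 13 and 16 of the 18. Among partner genes, differences near 0 changed sign for Cdc37 (-0.0359 under quantile normalization, -0.0577 to 0.136 with 1 array left out) and for Dvl1 (0.0279 with the station block and within station 1, 0.0242 without the muscle-rich arrays, -0.226 to 0.0219 with 1 array left out). The gap of Celsr2 ran from 0.31 without BPH 3 to 1.60 with the station block, and that of Arih1 from 0.36 to 0.79. The cause of these changes was not tested.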
